A study of Homo sapiens with 12 samples.

Results

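The unfolded protein response and the integrated stress response were followed here through 33 genes out of 19775 measured on the arrays. They were listed by name, by a rule that uses no values, but with earlier results of these arrays known. A gene's value was the mean of the probe sets (sets of short probes for a transcript) that name that gene alone; all 33 had at least 1, 13 had 1 and 20 had several, 72 in all. The members were sorted by role into an ATF4 arm of 12 genes, an endoplasmic reticulum (ER) chaperone arm of 14, a group of 3 genes of ER-associated degradation, and a group of 4 made up of the 3 stress sensors and XBP1.

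IMR-90 is a fibroblast line from human lung that stops dividing after a limited life in culture. The 4 groups, each of 3 arrays labelled as biological replicates, were these: at 20% oxygen, young cells taken at population doubling 30 and senescent cells taken at 48; at 3% oxygen, young cells also taken at 30 and old cells, not senescent, taken at 53. All groups had the same medium and serum, were untreated apart from the oxygen level and were collected before the flasks were full. The oxygen levels had separate incubators, so oxygen and incubator cannot be told apart, and 1 line was studied. The senescent and old cells are labelled as matched in age and differ in population doubling as well as in oxygen and state. Nothing beyond the replicate labels says that the 3 arrays of a group are separate cultures, so the p-values measure the spread between these arrays, which may be technical.

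Deposited values are on a log2 scale (the base was assumed) and were centred, so that each probe set has a median of 0 over the 12 arrays. Changes between groups can be read from such values, but levels cannot, so no gene's level is set against another's and the presence of lung fibroblast markers could not be checked. Changes are log2 differences ± standard error from a fit of all genes, with n = 3 arrays per group. A gene is called, and said to rise or fall, at a Benjamini-Hochberg adjusted p under 0.05 in limma. Some counts at an unadjusted p under 0.05 in the same fit are also given. The share of all genes that pass it was not computed, so those counts are not read as results. RNA came from whole cultures, so fewer cells expressing a gene and less of its RNA per cell cannot be told apart. Of 9 fibroblast marker genes, 5 were lower with senescence at 20% oxygen and 4 lower in young cells at 3% than at 20%; 2 were higher and 1 lower in old than in senescent cells, and 4 had a negative interaction (defined with its results). None was called in old against young cells at 3%, where 2 passed at an unadjusted p under 0.05, and their mean was 0.33 to 0.40 on the young arrays at 20% oxygen and -0.16 to 0.01 on all others. Of the epithelial, endothelial and immune markers (5, 4 and 4 genes), 1 epithelial gene was called, lower in young cells at 3% than at 20%; at an unadjusted p under 0.05, 2 epithelial genes passed in old against young cells at 3% and 2 in old against senescent cells (median -0.28), 1 immune gene passed in old against young cells at 3%, and no endothelial gene passed in any comparison. The part of these marker changes in the results below was not tested. The second young array at 3% oxygen had the highest 3' minus 5' difference of the beta-actin control probe sets, 0.706 against -0.219 to 0.348 on the other 11 arrays; this difference is a sign of RNA quality.

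Cells meet misfolded protein in the ER with 3 membrane sensors. IRE1 (gene ERN1) splices the mRNA of the transcription factor XBP1, ATF6 is cut to release a transcription factor, and PERK (gene EIF2AK3) phosphorylates the initiation factor eIF2 alpha, which lowers protein synthesis in general while favouring translation of ATF4. Other kinases that sense lack of amino acids, haem or viral RNA act on the same factor, so the ATF4 arm can run without ER stress and is then called the integrated stress response. ATF4 is controlled in large part by translation, ATF6 and XBP1 by cleavage and splicing, and arrays of this kind measure none of these steps. Fibroblasts secrete collagen and other matrix proteins and depend on ER chaperones to fold them.

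Promoter sequences of the members were searched for the ER stress element and for an ATF4 site, and some are shown. Chaperone promoters are known for the ER stress element, which was searched on both strands as CCAAT, then any 9 bases, then CCACG. The ATF4 site was searched the same way, with N for any base. Windows ran from 250 bases before to 50 after each start of a gene in RefSeq (GRCh38.p14), and 32 of the 33 members had a window. PDIA3 had none and was not searched. The element was found in 7 of these 32 genes and in 0.0916% of the 27305 genes with a window (25 genes). The 7 were HSPA5, HSP90B1, CALR, CANX, PDIA6 and CRELD2 of the chaperone arm, and XBP1. Their matches follow, in the direction of the motif, with the fixed letters in capitals.
PDIA6: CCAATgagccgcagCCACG
CANX: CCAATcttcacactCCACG
HSPA5: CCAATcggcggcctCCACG
HSP90B1, match farther from the start: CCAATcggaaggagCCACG
HSP90B1, match nearer the start: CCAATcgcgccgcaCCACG
CALR: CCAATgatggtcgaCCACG
XBP1: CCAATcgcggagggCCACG
CRELD2: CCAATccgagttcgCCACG

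The 250 bases before the start are printed for 2 of these genes, whose values on the arrays differed, and for MANF, whose window held no match. Capitals mark the whole element. The HSPA5 window lies on the minus strand at chr9:125241344-125241593, the HSP90B1 window on the plus strand at chr12:103930160-103930409 and the MANF window on the plus strand at chr3:51385041-51385290.
HSPA5: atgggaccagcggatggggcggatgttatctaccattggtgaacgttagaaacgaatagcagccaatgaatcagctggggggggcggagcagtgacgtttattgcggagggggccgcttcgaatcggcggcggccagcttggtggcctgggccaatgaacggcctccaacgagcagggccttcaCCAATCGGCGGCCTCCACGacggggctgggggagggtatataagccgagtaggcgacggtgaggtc
HSP90B1: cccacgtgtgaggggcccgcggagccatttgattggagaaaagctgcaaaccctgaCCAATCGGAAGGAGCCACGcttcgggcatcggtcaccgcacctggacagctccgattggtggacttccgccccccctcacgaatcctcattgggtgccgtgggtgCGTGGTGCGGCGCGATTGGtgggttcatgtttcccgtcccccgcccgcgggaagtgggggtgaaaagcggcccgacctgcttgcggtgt
MANF: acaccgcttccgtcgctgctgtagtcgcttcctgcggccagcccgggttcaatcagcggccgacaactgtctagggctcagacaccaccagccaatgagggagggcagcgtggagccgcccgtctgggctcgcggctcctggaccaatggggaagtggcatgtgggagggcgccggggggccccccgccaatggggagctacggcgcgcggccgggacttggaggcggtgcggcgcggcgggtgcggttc

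In HSPA5 the element ends 48 bases before the start; HSP90B1 holds 1 match on each strand, ending 176 and 71 bases before it. A match is a run of letters and does not show that a factor binds there. The ATF4 site TGATGNAAT was found in none of the 32 members and in 1.22% of all genes with a window. Without its last base (TGATGNAA, a form added after the first search) it was found in 6 members, ATF3, CHAC1, JDP2, SLC3A2, SLC7A1 and HERPUD1, and in 4.46% of all genes; each match to the longer form is also a match to the shorter one.

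Of the 33 members, 12 were called in at least 1 of the 4 comparisons of 2 groups, against 21.9% of all genes. They were ATF4, CHAC1, SLC7A5 and SLC3A2 of the ATF4 arm, HSP90B1, PDIA3, PDIA4, DNAJB9, DNAJB11, DNAJC3 and MANF of the chaperone arm, and the sensor EIF2AK3. None of the 3 degradation genes was called. The arms did not move as blocks: within the chaperone arm HSP90B1, PDIA3 and PDIA4 were low in young cells at 20% oxygen, while DNAJB9 was high there and MANF was low in senescent cells. No called change was as large as 2-fold; the largest was 1.95-fold, for SLC7A5.

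**Figure D1:**
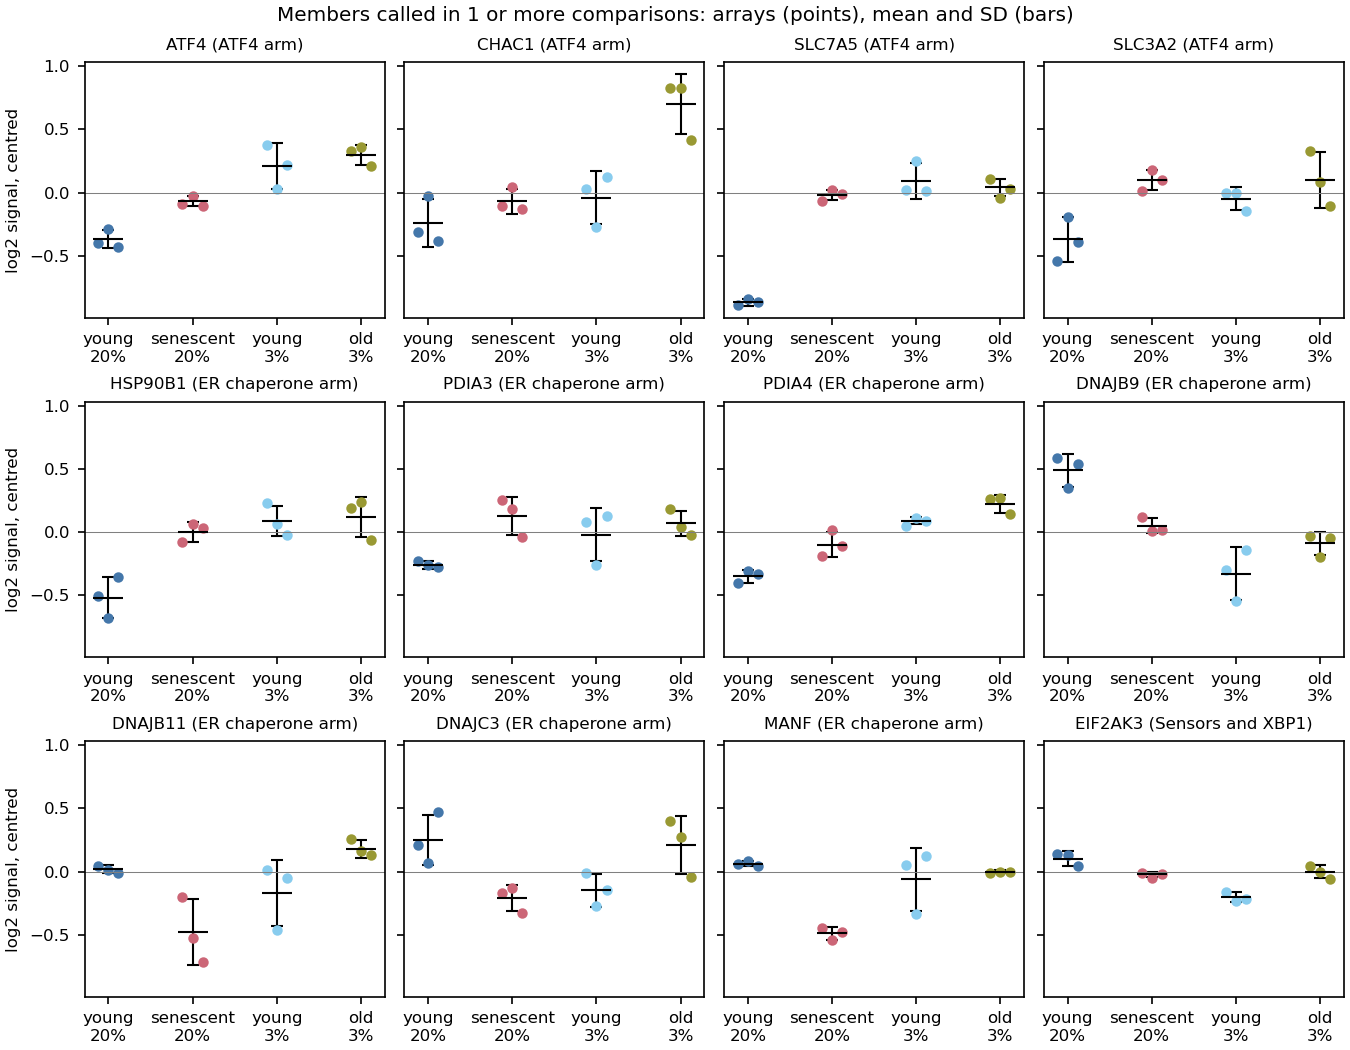
Centred log2 signal (vertical axis) of the 12 called members on each of the 12 arrays (points), with the group mean (long bar) and SD (n = 3), by group. SLC7A5 is low on the 3 young arrays at 20% oxygen (-0.89 to -0.84), DNAJB9 is high on them (0.35 to 0.59), and MANF is low on the 3 senescent arrays (-0.54 to -0.45).

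Averaged over its 12 genes, the ATF4 arm stood at -0.20 ± 0.03 on the young and 0.00 ± 0.13 on the senescent arrays at 20% oxygen, and at 0.00 ± 0.07 on the young and 0.13 ± 0.17 on the old arrays at 3% (SD, n = 3). The chaperone arm stood at -0.04 ± 0.04, -0.12 ± 0.09, -0.04 ± 0.05 and 0.09 ± 0.10 in the same order. The young arrays at 20% oxygen were thus the lowest for the ATF4 arm (-0.24, -0.19 and -0.18, against -0.11 to 0.28 on all others), while the chaperone arm overlapped between every pair of groups except the senescent cells (-0.21 to -0.04) and the old cells (-0.02 to 0.19). In young cells at 20% oxygen the genes of the ATF4 arm had means from -0.87 (SLC7A5) to 0.29 (PPP1R15A), so not every gene was low. SLC7A5 weighed most in this arm mean, and the next lowest means were -0.37 for ATF4 and -0.37 for SLC3A2. Arm means without SLC7A5 were not computed. The separation of these arrays, here and in the difference between the arms, may therefore rest on that gene. On each array the ATF4 arm minus the chaperone arm was -0.19 to -0.13 for the young and 0.06 to 0.18 for the senescent cells at 20% oxygen, and -0.03 to 0.07 for the young and -0.04 to 0.10 for the old cells at 3%. These means are descriptions without a test, since the genes were picked with earlier results of these arrays known.

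**Figure D2:**
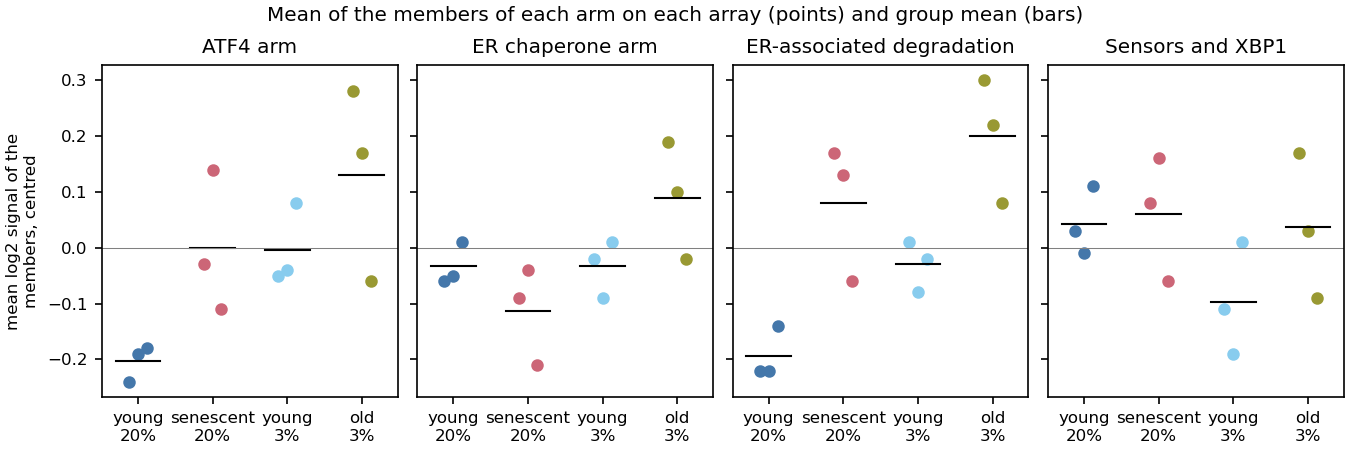
Mean centred log2 signal (vertical axis) of the members of each arm on each array (points) and the group mean (bars), for the 4 groups. The ATF4 arm is lowest in young cells at 20% oxygen (-0.24 to -0.18), and the ER chaperone arm lies between -0.21 and 0.19 on all arrays.

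Senescent cells were first set against young cells at 20% oxygen, the comparison of the senescent state. The 2 subunits of the large neutral amino acid transporter rose: SLC7A5, the catalytic light chain, by 0.85 ± 0.09 (1.8-fold, adjusted p = 4.95e-05), and SLC3A2, its glycoprotein heavy chain, by 0.47 ± 0.12 (1.39-fold, adjusted p = 0.0246). In the chaperone arm the ER paralogue of HSP90, HSP90B1 (GRP94), and the disulphide isomerase PDIA3 rose, while the 3 J-domain co-chaperones DNAJB9, DNAJB11 and DNAJC3 and the secreted ER protein MANF fell. Of all members 4 were higher and 4 lower. These are 12.1% and 12.1% of the members, against 4.67% and 7.84% of all genes; in either direction 24.2% of the members and 12.5% of all genes were called. By arm, 2 of 12 ATF4 arm genes were higher and 0 lower, and 2 of 14 chaperones were higher and 4 lower. The median change was 0.18 in the ATF4 arm and -0.15 in the chaperone arm, beside 0.042 over all genes. The arrays of the groups did not overlap for 19 members (57.6%), against 29.3% of all genes.

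SLC7A5 stood at -0.89, -0.84 and -0.87 on the young arrays and at -0.07, 0.02 and -0.01 on the senescent arrays. The groups were far apart relative to their spread, and the senescent values lay beside those of the cells at 3% oxygen (-0.04 to 0.25). SLC3A2 stood at -0.54, -0.19 and -0.39 in young cells and at 0.01, 0.18 and 0.10 in senescent cells. Its groups did not overlap either, but it was no longer called without young replicate 1 or 3 (adjusted p = 0.121 and 0.0714) or senescent replicate 2 or 3 (0.087 and 0.0697).

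HSP90B1 stood at -0.51, -0.68 and -0.36 in young cells and at -0.08, 0.06 and 0.03 in senescent cells, a rise of 0.52 ± 0.11 (1.44-fold, adjusted p = 0.00842). Both of its probe sets, 216449_x_at and 216450_x_at, are of the kind that can read several transcripts, and they gave 0.55 and 0.50; the gene has no value without such probe sets. PDIA3, which works with calnexin and calreticulin on glycoproteins, stood at -0.23, -0.26 and -0.28 in young cells and at 0.25, 0.18 and -0.04 in senescent cells. Its rise of 0.39 ± 0.12 (adjusted p = 0.0495) was the weakest call: it was lost without any 1 of 10 of the 12 arrays (adjusted p = 0.0515 to 0.185) and kept without senescent replicate 3 or young replicate 2 at 3%. It was also not called with the probe set of largest SD (adjusted p = 0.062), without probe sets that can read several transcripts (0.0504), with arrays centred on their median (0.0531) or with the replicate block (0.0573).

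MANF, which binds HSPA5 and is itself induced by ER stress, stood at 0.06, 0.08 and 0.04 in young cells and at -0.45, -0.54 and -0.48 in senescent cells, a fall (-0.55 ± 0.11, 1.46-fold lower, adjusted p = 0.00509). The 3 senescent arrays lay below all 9 others, of which the lowest was -0.34, the second young array at 3% oxygen. The call was kept without any 1 array (highest adjusted p = 0.0234).

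The J-domain proteins hand substrates to HSPA5 and stimulate its ATPase. DNAJB9 (ERdj4), which also holds IRE1 inactive, stood at 0.59, 0.35 and 0.54 in young cells and at 0.12, 0.01 and 0.02 in senescent cells. DNAJB11 (ERdj3) stood at 0.04, 0.01 and -0.01 in young cells and at -0.20, -0.53 and -0.72 in senescent cells, and DNAJC3 (P58IPK, an inhibitor of eIF2 alpha kinases) at 0.21, 0.07 and 0.47 and at -0.17, -0.13 and -0.33. None of the 3 overlapped between the groups. The changes were -0.44 ± 0.11 for DNAJB9 (adjusted p = 0.0218), -0.50 ± 0.14 for DNAJB11 (adjusted p = 0.0392) and -0.46 ± 0.13 for DNAJC3 (adjusted p = 0.0416). All 3 probe sets of DNAJB9 (-0.52 to -0.40) and all 4 of DNAJC3 (-0.74 to -0.24) had this direction. The calls depended on single arrays and on the processing. DNAJB9 lost its call without young replicate 1 or 3 or senescent replicate 2 or 3 (adjusted p = 0.0712 to 0.101), DNAJB11 without any young array, senescent replicate 2 or 3 or old replicate 2 (0.0557 to 0.163), and DNAJC3 without young replicate 1 or 3, any senescent array, young replicate 3 at 3% or old replicate 2 (0.0568 to 0.167). With the probe set of largest SD none of the 3 was called (adjusted p = 0.0914 for DNAJB9, 0.0588 for DNAJB11 and 0.117 for DNAJC3). DNAJB11 has 1 probe set, so its own values were the same there and only those of other genes differed. DNAJB11 was not called with a trended, robust eBayes step (0.0612), nor DNAJC3 with the replicate block (0.0611).

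Of the 4 chaperones that fell, all had a promoter window and none held a match to the ER stress element. Also without a match were PDIA4 (0.25 ± 0.09), SDF2L1 (-0.30 ± 0.26) and HYOU1 (-0.30 ± 0.12), which were not called. Of the 6 chaperones with a match, HSP90B1 rose and the other 5 were not called: HSPA5 (-0.06 ± 0.09), CALR (0.28 ± 0.12), CANX (0.14 ± 0.09), PDIA6 (0.13 ± 0.08) and CRELD2 (-0.24 ± 0.13). PDIA3, which also rose, had no window and is in neither group. A search for fixed letters in a short window cannot show that the element is absent. Whether the element goes with these changes was not tested. HSPA5 (BiP), the ER HSP70 and the usual gauge of ER stress, stood between -0.16 and 0.12 on all 12 arrays and overlapped between the groups in each of the 4 comparisons of 2 groups.

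ATF4 itself had a change of 0.30 ± 0.10 (adjusted p = 0.0783), and CEBPB, a transcription factor that pairs with ATF4, one of 0.31 ± 0.10 (adjusted p = 0.0576). Neither was called, although the arrays of the groups did not overlap. ATF4 was called with the beta-actin difference as a covariate (adjusted p = 0.0343), with array quality weights (0.000992) and without young replicate 1 or 2 at 3% (0.0489 and 0.0437). CEBPB was called after quantile normalization (0.0359), with the weights (0.000166) and without old replicate 1 (0.031). Under the other settings neither was called. DDIT3 (CHOP), the factor linked to death under lasting ER stress, had a change of -0.08 ± 0.15, and PPP1R15A (GADD34), the phosphatase subunit that reverses eIF2 alpha phosphorylation, one of -0.32 ± 0.19. The pseudokinase TRIB3, a target of ATF4 and CHOP, averaged 0.37 ± 0.16 (adjusted p = 0.174), but its 2 probe sets gave 0.83 (218145_at) and -0.08 (1555788_a_at). The first was called in the fit with the probe set of largest SD (adjusted p = 0.00117). That SD is over these same arrays and includes the group difference, so the choice favours a call. CHAC1, an enzyme that degrades glutathione, had a change of 0.17 ± 0.14, and the remaining members of the arm (ATF3, JDP2, SLC7A1 and SLC6A9) were not called.

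Of the sensors, ATF6 stood at -0.03, -0.20 and -0.08 in young cells and at 0.42, 0.57 and 0.24 in senescent cells. The groups did not overlap and all 4 probe sets gave a positive change (0.37 to 0.67), but the mean of 0.51 ± 0.16 was not called (adjusted p = 0.0619). It was called with the beta-actin 3' minus 5' difference as a covariate (adjusted p = 0.00335), after quantile normalization (0.0317), in a fit of the 2 groups alone (0.0175) and with array quality weights (0.00115). The weights raised the genes called over all from 2474 to 6203. Under the other settings ATF6 was not called, nor without any 1 of 10 of the arrays. On the young arrays at 3% ATF6 stood at -0.04, -0.60 and -0.08, and on the old arrays at 0.36, -0.01 and -0.14. ERN1 stood at 0.21, 0.16 and 0.15 on the young and -0.01, 0.16 and -0.04 on the senescent arrays at 20% (-0.14 ± 0.10), and at -0.17, 0.01 and 0.08 on the young and -0.02, 0.01 and -0.17 on the old arrays at 3%. These groups overlapped at both oxygen levels. XBP1 stood at -0.22, -0.12 and 0.32 on the young and -0.08, -0.05 and -0.41 on the senescent arrays at 20% (-0.18 ± 0.15), and at -0.05, 0.06 and 0.25 on the young and 0.30, 0.10 and 0.01 on the old arrays at 3%. Its groups overlapped at both oxygen levels too, and neither gene was called. EIF2AK3, at -0.01, -0.05 and -0.02 on the senescent arrays and 0.04, 0.00 and -0.06 on the old arrays, was not called here either (-0.13 ± 0.08). For ERN1, 1 of 3 probe sets (227755_at) gave -0.56 and the others gave 0.07 each. The first was called in the fit with the probe set of largest SD (adjusted p = 0.00336), a choice that favours a call as for TRIB3. In the degradation group EDEM1, a lectin that extracts misfolded glycoproteins (0.31 ± 0.10, adjusted p = 0.0734), and SEL1L, the adaptor of the HRD1 ligase (0.38 ± 0.13, adjusted p = 0.0735), were not called, nor was HERPUD1 (0.13 ± 0.09). At an unadjusted p under 0.05, 2 of the 3 were higher. EDEM1 was called after quantile normalization (adjusted p = 0.0432) and without senescent replicate 3 (0.0246). SEL1L was called with the covariate (0.0193), in a fit of the 2 groups alone (0.0478) and without old replicate 1 (0.049). With array quality weights EDEM1, SEL1L and HERPUD1 were called (0.000334, 0.000123 and 0.0193). Under the other settings none was called.

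**Figure D3:**
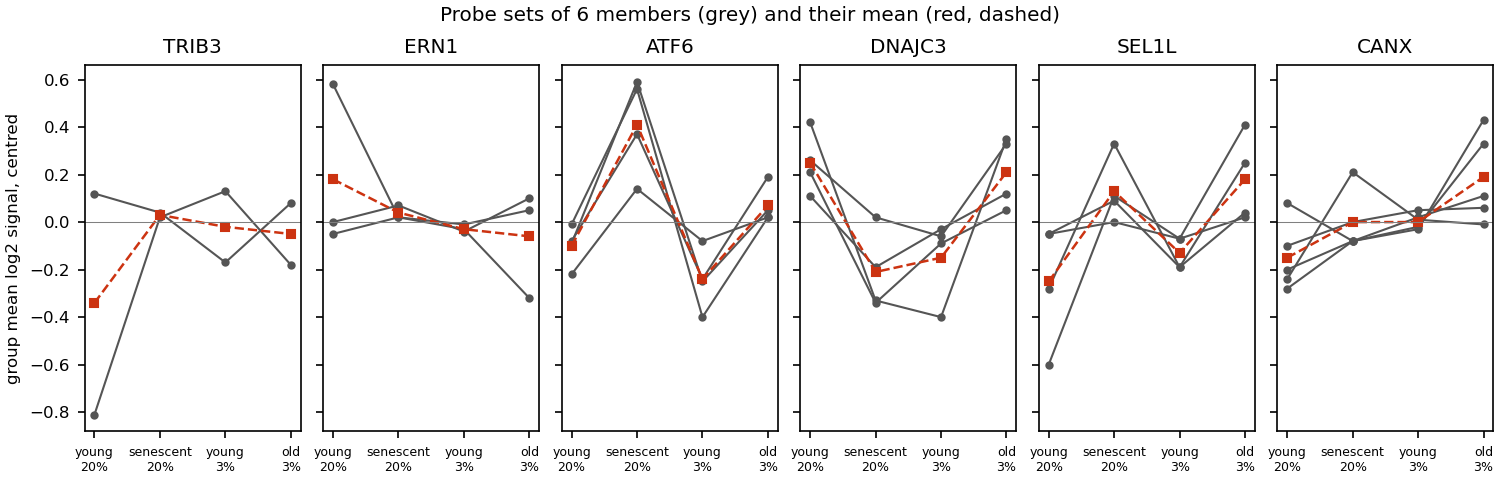
Group mean of the centred log2 signal (vertical axis) for each probe set of 6 members (grey) and the mean used for the gene (red, dashed), over the 4 groups. One probe set of TRIB3 is at -0.81 in young cells at 20% oxygen and the other at 0.12, whereas the 4 probe sets of ATF6 are all highest in senescent cells at 20% oxygen.

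Young cells at 3% oxygen were then set against young cells at 20%, the comparison of oxygen before ageing. ATF4 and SLC7A5 were higher at 3% in the ATF4 arm, HSP90B1 and PDIA4 were higher and DNAJB9 lower in the chaperone arm, and the sensor EIF2AK3 was lower. Of all members 4 were higher and 2 lower, 12.1% and 6.06%, against 4.96% and 6.84% of all genes. In either direction 18.2% of the members and 11.8% of all genes were called. By arm, 2 of 12 ATF4 arm genes were higher and 0 lower, and 2 of 14 chaperones higher and 1 lower. The median change was 0.21 in the ATF4 arm and 0.055 in the chaperone arm, beside -0.033 over all genes. The arrays did not overlap for 17 members (51.5%), against 29.7% of all genes. This comparison shares its young arrays at 20% oxygen with the comparison of senescent cells, so a gene that is low on them is higher in both.

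ATF4 stood at -0.40, -0.29 and -0.43 in young cells at 20% oxygen and at 0.38, 0.03 and 0.22 at 3%. The rise of its mRNA was 0.58 ± 0.10 (1.5-fold, adjusted p = 0.00177) on its single probe set, 200779_at. SLC7A5 stood at 0.02, 0.25 and 0.01 at 3%, above the young arrays at 20% given before, a difference of 0.96 ± 0.09 (1.95-fold, adjusted p = 1.26e-05). SLC3A2 had 0.32 ± 0.12 here and was not called (adjusted p = 0.131).

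HSP90B1 stood at 0.23, 0.06 and -0.02 at 3% (0.61 ± 0.11, 1.53-fold higher, adjusted p = 0.00319). PDIA4 (ERp72), a large disulphide isomerase, stood at -0.40, -0.31 and -0.33 at 20% and at 0.05, 0.11 and 0.09 at 3%. Its rise of 0.43 ± 0.09 (1.35-fold, adjusted p = 0.00435) was shared by both probe sets (0.47 and 0.40). DNAJB9 stood at -0.30, -0.55 and -0.14 at 3%, against 0.35 to 0.59 at 20%, and its change of -0.83 ± 0.11 (1.77-fold lower, adjusted p = 0.000337) was the largest fall of any member in the 4 comparisons of 2 groups. All 5 of these calls, in ATF4, SLC7A5, HSP90B1, PDIA4 and DNAJB9, were kept without any 1 array (highest adjusted p = 0.0283), but PDIA4 was not called with the probe set of largest SD (0.0764).

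EIF2AK3 (PERK) stood at 0.14, 0.13 and 0.04 in young cells at 20% oxygen and at -0.16, -0.23 and -0.22 at 3%. The groups did not overlap, and the fall (-0.31 ± 0.08, 1.24-fold lower, adjusted p = 0.021) came with -0.49 on 218696_at and -0.12 on 241463_at. It was not called without young replicate 1 or 2 at 20% (adjusted p = 0.0946 and 0.0755) or young replicate 2 or 3 at 3% (0.0563 and 0.0627), nor in a fit of the 2 groups alone (0.0761). ATF6 (-0.14 ± 0.16), ERN1 (-0.20 ± 0.10) and XBP1 (0.09 ± 0.15) were not called. For ERN1 the probe set 227755_at, chosen for its largest SD over these same arrays, gave -0.60 (adjusted p = 0.002).

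The members not called here again included DDIT3 (0.03 ± 0.15), HSPA5 (0.05 ± 0.09) and CALR (0.01 ± 0.12). PPP1R15A had -0.43 ± 0.19 (adjusted p = 0.201). DNAJC3 had -0.40 ± 0.13 (adjusted p = 0.0831) and PDIA6 0.25 ± 0.08 (adjusted p = 0.068). TRIB3 averaged 0.32 ± 0.16 from probe sets at 0.94 and -0.29. The first, again chosen for its largest SD over these same arrays, was called (adjusted p = 0.000455). The 3 degradation genes had changes of 0.12 to 0.19, with none called and none at an unadjusted p under 0.05.

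**Figure D4:**
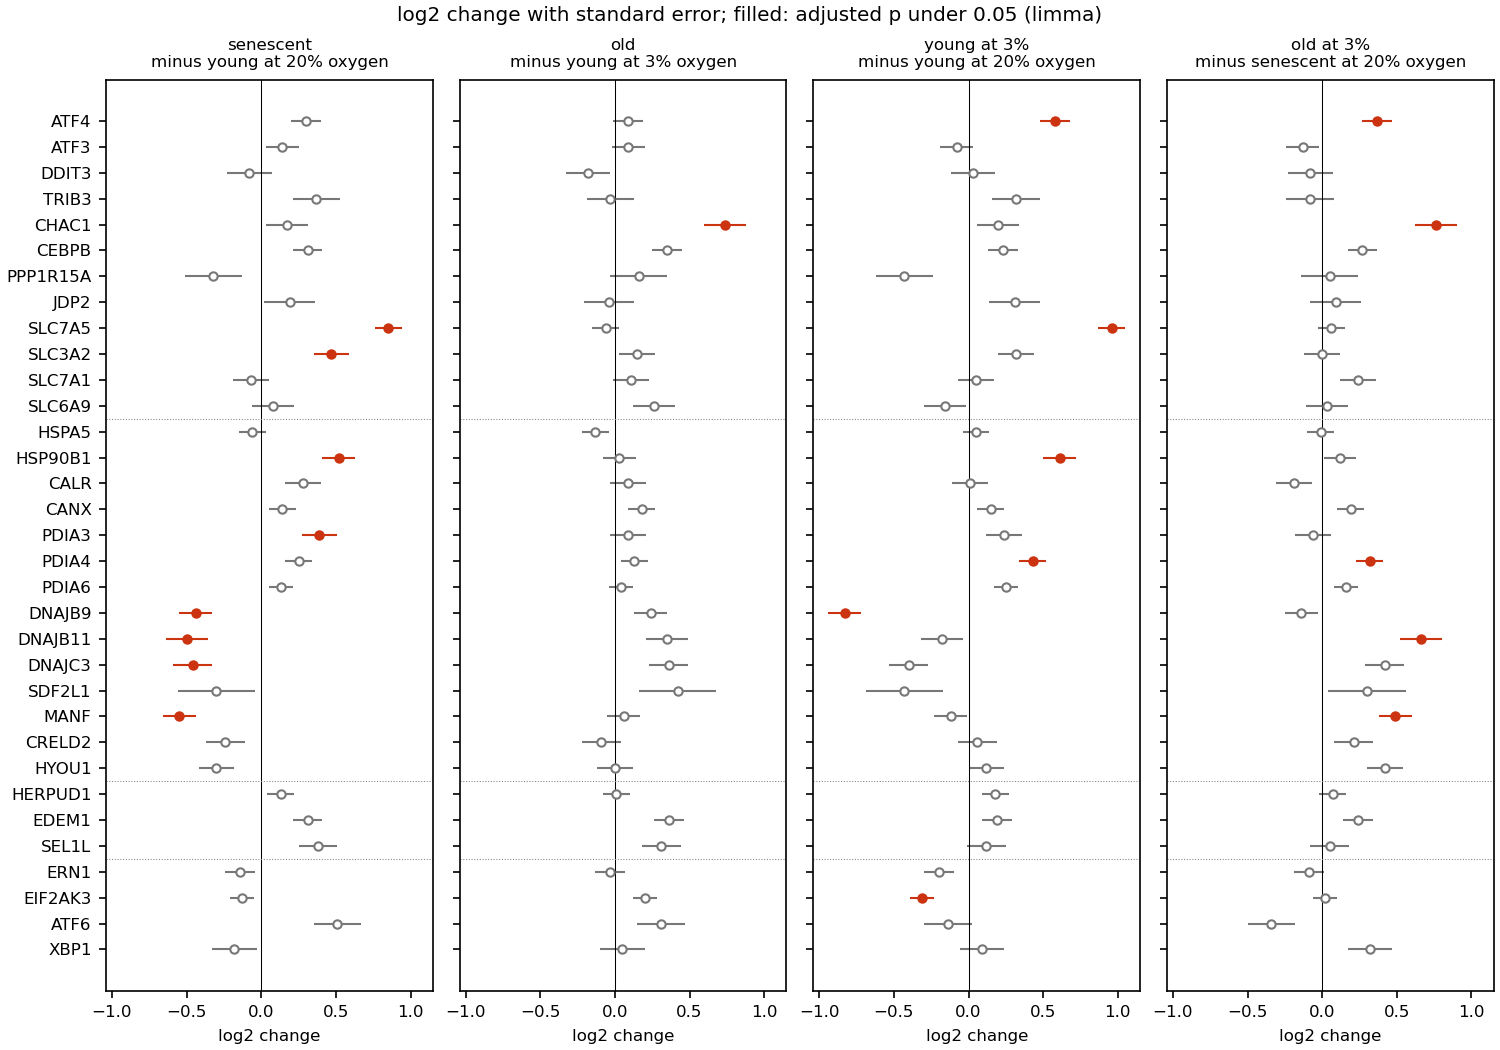
log2 change with its standard error (horizontal axis) of the 33 members in the 4 comparisons of 2 groups, with dotted lines between the ATF4 arm, the chaperones, the degradation genes, and the sensors with XBP1; filled red points have an adjusted p under 0.05 in limma. Called members number 8 for senescent against young cells at 20% oxygen, 1 for old against young cells at 3%, 6 for young cells at 3% against 20%, and 5 for old cells at 3% against senescent cells at 20%.

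Old cells at 3% oxygen were set against young cells at 3%, the comparison of passage without senescence. A single member was called, CHAC1, which rose by 0.74 ± 0.14 (1.67-fold, adjusted p = 0.0219). That is 3.03% of the members, against 0.981% of all genes that were higher and 1.74% called in either direction. The arrays did not overlap for 7 members (21.2%), against 15.6% of all genes. CHAC1 stood at 0.03, -0.27 and 0.12 in young cells and at 0.83, 0.83 and 0.42 in old cells, and the old arrays lay above all 9 others (-0.38 to 0.12). The call was lost without young replicate 1 or 2 (adjusted p = 0.0515 and 0.0883) or old replicate 1 or 2 (0.102 and 0.111), in a fit of the 2 groups alone (0.122) and with the beta-actin difference as a covariate (0.0579).

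No chaperone was called in this comparison; at an unadjusted p under 0.05, 2 were higher and 0 lower. A positive change was seen in 11 of the 14 chaperones, but the share of all genes with a positive change was not computed. The chaperone median was 0.089, and 0.045 to 0.15 without any 1 array, beside 0.049 over all genes. CEBPB (0.35 ± 0.10, adjusted p = 0.119) and EDEM1 (0.36 ± 0.10, adjusted p = 0.135) did not overlap between the groups and were not called. DNAJB11 (0.35 ± 0.14), DNAJC3 (0.36 ± 0.13) and SDF2L1, a partner of the ER chaperones (0.42 ± 0.26), had positive changes that were not called. Among the sensors, EIF2AK3 (0.20 ± 0.08) and ATF6 (0.31 ± 0.16) were not called, and 1 sensor was higher at an unadjusted p under 0.05. The median change of the ATF4 arm was 0.10.

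Old cells at 3% oxygen were also set against senescent cells at 20%, late cells that still divided against late cells that did not. ATF4 and CHAC1 were higher in the old cells, as were the chaperones PDIA4, DNAJB11 and MANF, and no member was lower. These 5 are 15.2% of the members, against 6.59% of all genes that were higher and 11.0% called in either direction; 4.41% of all genes were lower. The median change was 0.20 in the chaperone arm and 0.054 in the ATF4 arm, beside -0.018 over all genes. The arrays did not overlap for 14 members (42.4%), against 24.3% of all genes.

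CHAC1 stood at -0.11, 0.04 and -0.13 in senescent cells, so that the old cells were higher by 0.76 ± 0.14 (1.7-fold, adjusted p = 0.00352). ATF4 stood at -0.09, -0.03 and -0.11 in senescent and at 0.33, 0.36 and 0.21 in old cells (0.37 ± 0.10, 1.3-fold higher, adjusted p = 0.0303). That call was lost without young replicate 1 at 20%, any senescent array or old replicate 1 or 2 (adjusted p = 0.0502 to 0.109), with the probe set of largest SD (0.0726), the beta-actin covariate (0.07), the groups alone (0.0517), flat genes left out (0.0507) and the replicate block over all arrays (0.0502), though not with the block fitted to the senescent and old arrays only (0.0226). ATF4 has 1 probe set, so the probe set of largest SD changed only the values of other genes.

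DNAJB11 stood at 0.26, 0.16 and 0.13 in old cells and was higher there by 0.66 ± 0.14 (1.58-fold, adjusted p = 0.00843). MANF stood at -0.01, 0.00 and 0.00 in old cells (0.49 ± 0.11, 1.4-fold higher, adjusted p = 0.0116). Both calls, and that of CHAC1, were kept without any 1 array (highest adjusted p = 0.0451). PDIA4 stood at -0.19, 0.02 and -0.11 in senescent and at 0.26, 0.27 and 0.14 in old cells (0.32 ± 0.09, adjusted p = 0.0305), a call lost without senescent replicate 1 or 3 or old replicate 1 or 2 (0.0935 to 0.135). It was also lost with the probe set of largest SD (adjusted p = 0.249), the groups alone (0.116), flat genes left out (0.0699) and the block fitted to the senescent and old arrays only (0.0532).

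HYOU1, the ER HSP110 that exchanges the nucleotide of HSPA5, stood at -0.23, -0.36 and -0.45 in senescent cells and at 0.13, 0.04 and 0.06 in old cells. It lay just outside the threshold (0.42 ± 0.12, adjusted p = 0.05003), as did DNAJC3 (0.42 ± 0.13, adjusted p = 0.0674). With the block fitted to the senescent and old arrays only both passed (adjusted p = 0.0152 and 0.0204), and the chaperones called numbered 4 in place of 3. SLC7A5 (0.06 ± 0.09) and SLC3A2 (0.00 ± 0.12) were not called. Neither were HSPA5 (-0.01 ± 0.09), DDIT3 (-0.08 ± 0.15), ATF6 (-0.34 ± 0.16, adjusted p = 0.272) or XBP1 (0.32 ± 0.15). None of the degradation genes was called, and 1 was higher at an unadjusted p under 0.05.

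The passage change at 20% oxygen was last tested against that at 3%, as an interaction. In all, 5 members differed: SLC7A5 with a positive interaction (0.91 ± 0.13, adjusted p = 0.000935), and DNAJB9 (-0.68 ± 0.16, adjusted p = 0.024), DNAJB11 (-0.85 ± 0.20, adjusted p = 0.0261), DNAJC3 (-0.82 ± 0.19, adjusted p = 0.0217) and MANF (-0.61 ± 0.16, adjusted p = 0.0371) with negative ones. That is 3.03% of the members with a positive and 12.1% with a negative interaction, against 2.06% and 4.37% of all genes, and 15.2% of the members in either direction against 6.44% of all genes. SLC7A5 changed by 0.85 with passage at 20% and by -0.06 at 3%. The J-domain proteins changed by -0.50 to -0.44 at 20% and by 0.24 to 0.36 at 3%, where none was called. SLC7A5 kept its call without any 1 array (highest adjusted p = 0.00463). DNAJB9 lost it without young replicate 1 or 3 or senescent replicate 2 or 3 at 20% or old replicate 1 (adjusted p = 0.0532 to 0.0744) and with the probe set of largest SD (0.167). DNAJB11 lost it without any young array at 20%, senescent replicate 2 or 3 or old replicate 1 or 2 (adjusted p = 0.0523 to 0.0689), and DNAJC3 without young replicate 3 or senescent replicate 3 at 20%, young replicate 2 at 3% or old replicate 1 or 2 (0.0546 to 0.0607). MANF lost it without any 1 of the 9 arrays other than young cells at 3% (highest adjusted p = 0.088). It was called under 3 of 9 other settings and lost with trended, robust eBayes (adjusted p = 0.0811), the beta-actin covariate (0.0728), the probe set of largest SD (0.0688), quantile normalization (0.0606), flat genes left out (0.0531) and the replicate block (0.0509). MANF also has 1 probe set, so the probe set of largest SD left its own values unchanged.

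Other genes of the same pathways were taken from lists that hold no member. Beside the counts below, the shares of all genes called higher and lower were 4.67% and 7.84% for senescent against young cells at 20% oxygen. They were 4.96% and 6.84% for young cells at 3% against 20%, and 0.981% and 0.759% for old against young cells at 3%. For old against senescent cells they were 6.59% and 4.41%, and for the interaction 2.06% positive and 4.37% negative. Of 31 measured further ATF4 targets, 17 were higher and 1 lower with senescence at 20% oxygen (median 0.43, beside 0.042 over all genes). In young cells at 3% against 20%, 17 were higher and 1 lower (median 0.44, beside -0.033). The mTORC1 inhibitor DDIT4 stood at -2.42, -2.01 and -2.73 in young cells at 20%, between -0.50 and -0.20 on the senescent arrays and between 0.20 and 0.54 at 3%. It was 4.13-fold higher in senescent cells (2.05 ± 0.15, adjusted p = 2.32e-06) and 6.32-fold higher in young cells at 3%. PSAT1, of serine synthesis, was 2.62-fold and 2.59-fold higher in the same comparisons, VLDLR 3.11-fold and 2.53-fold, and EIF4EBP1, a brake on translation, 2.37-fold and 2.57-fold. In old against young cells at 3%, 1 further target rose (SLC7A11, the cystine transporter, 0.66 ± 0.12, adjusted p = 0.0162) and 1 fell (ALDH18A1, -0.42 ± 0.08, adjusted p = 0.0174). SLC7A11 lost that call without young replicate 2 or 3 or old replicate 1, and ALDH18A1 without young replicate 1 or 2 or old replicate 1 or 2 (highest adjusted p = 0.072 and 0.079). In old against senescent cells, 4 were higher and 2 lower, among them DDIT4 (1.76-fold higher) and the seryl-tRNA synthetase SARS1 (1.7-fold higher), which was low in senescent cells (-0.57, -0.83 and -0.91). The interaction was positive for 10 and negative for 0. DDIT4 and VLDLR are also known to respond to low oxygen.

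Among 12 genes of eIF2 and its regulators, the amino acid sensor EIF2AK4 (GCN2) stood at -0.33, -0.22 and -0.28 in young cells at 20% oxygen and at 0.49, 0.53 and 0.36 in senescent cells (0.74 ± 0.10, 1.67-fold higher, adjusted p = 0.000455). PPP1R15B, the constitutive partner of the eIF2 alpha phosphatase, fell (-0.65 ± 0.10, 1.57-fold, adjusted p = 0.00081), from 0.44, 0.33 and 0.53 to -0.10, -0.20 and -0.35. The list had 1 higher and 2 lower there, 1 and 1 in young cells at 3% against 20%, and 0 and 1 in old against senescent cells. It had 1 positive and 1 negative interaction, and none called in old against young cells at 3% (none at an unadjusted p under 0.05).

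Of 13 measured further ER folding genes, 3 were higher and 2 lower in the senescent cells at 20%. The oxidase ERO1A, which regenerates the disulphide isomerases and is known as a target of the hypoxia-inducible factors, rose 3.83-fold (1.94 ± 0.08, adjusted p = 1.7e-08), from -1.39, -1.51 and -1.36 to 0.55, 0.52 and 0.48. The prolyl isomerase FKBP11 fell (-1.01 ± 0.14, 2.01-fold, adjusted p = 0.000407), to -0.82, -0.74 and -1.10 in senescent cells against -0.47 to 0.25 on all other arrays. The list had 2 higher and 1 lower in young cells at 3% against 20%, and 3 and 1 in old against senescent cells, where FKBP11 was 2.06-fold higher and the ER HSP70 relative HSPA13 1.42-fold higher. It had 1 positive and 1 negative interaction.

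Of 21 translocation and export genes, 3 were higher and 2 lower in the senescent cells at 20%, 0 and 3 in young cells at 3% against 20%, and 0 and 1 in old against senescent cells, with 2 negative interactions. The signal recognition receptor subunit SRPRB fell in the first 2 of these (-0.79 ± 0.17 and -0.86 ± 0.17, adjusted p = 0.00714 and 0.00419). Of 13 further degradation genes, 1 was higher and 2 lower, 1 and 3, and 1 and 1 in the same order, and 0 had an interaction (1 positive and 4 negative at an unadjusted p under 0.05). Among them the lectin OS9 rose in senescent cells (0.47 ± 0.10, adjusted p = 0.00744) and the dislocation factor DERL2 fell (-0.45 ± 0.10, adjusted p = 0.00985). Of 7 further ER stress sensors and their proteases, 2 were higher and 0 lower, 0 and 2, and 0 and 1, and 0 had an interaction (1 negative at an unadjusted p under 0.05). WFS1 rose in senescent cells (0.56 ± 0.13, adjusted p = 0.0136), a call lost without young replicate 3 or senescent replicate 1 (highest adjusted p = 0.0605), and was lower in old cells at 3% (-0.72 ± 0.13, adjusted p = 0.00329). In old against young cells at 3%, none of these folding, export, degradation and sensor genes was called, and at an unadjusted p under 0.05, 4, 4, 3 and 2 of them were higher and 0 lower. Whether these counts exceed the share of all genes at that threshold was not tested.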

How the data were processed

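RNA of IMR-90 cultures, extracted with TRIzol, was measured on 12 Affymetrix arrays. The authors deposited 1 table of log2 values for 54675 probe sets, made with RMA per the submitters' processing notes (version not given in the sources used here). The log base is taken as 2 and is not stated. Each probe set has a median of 0 over the 12 arrays (within 1e-06), so its level is lost. Depth does not apply to arrays; their number limits the precision.

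From these values, the 41091 probe sets whose annotation names 1 gene were averaged into 19775 genes (41037 matched to current symbols by Entrez ID); 1801 that name several genes, 11721 that name none and 62 controls were left out. limma 3.58.1 in R 4.3.3 fitted the 4 groups over all 12 arrays (lmFit, eBayes), with Benjamini-Hochberg adjustment over all genes, and was tested on simulated data. Any member may be named; array values are given in full for called members whose groups do not overlap, the sensors and ATF4, and outside the module up to 4 called genes with the largest change per list and comparison may be named. The members and lists were chosen with earlier results of these data known. Correlations of same-numbered deviations were 0.129, 0.519 and 0.669 for the senescent with the old arrays. Every other pair of groups had a negative value among its correlations, and single values there reached 0.43. These correlations alone do not show that arrays are paired, and the main fit used no pairing. Alternatives covered the probe set rule, normalization, array weights, covariates, the replicate block, a filter on flat genes and leaving out each array.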

Additional observations from a re-analysis of the deposited data

Results flagged for a closer look

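The change with passage at 20% oxygen differed from that at 3% for 5 members, by limma's interaction test over all genes. The difference was 0.91 for SLC7A5, -0.68 for DNAJB9, -0.85 for DNAJB11, -0.82 for DNAJC3 and -0.61 for MANF on the log2 scale. For all 4 members with a negative difference, the second young array at 3% oxygen, which had the highest beta-actin 3' minus 5' difference (0.706), was the lowest of its group. With that difference as a covariate the values were 0.83 for SLC7A5 (adjusted p = 0.00222), -0.55 for DNAJB9 (0.0485), -0.66 for DNAJB11 (0.0493), -0.65 for DNAJC3 (0.0421) and -0.48 for MANF, which was no longer called (0.0728). Without that array they were 0.83 (adjusted p = 0.00185), -0.57 (0.0447), -0.70 (0.0484), -0.75 (0.0565, no longer called) and -0.46 (0.036) in the same order.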

How the results depend on the processing

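Array quality weights raised the genes called to 6203 for senescent against young cells at 20% oxygen (2474 without), 4137 for old against senescent cells (2176) and 2684 for the interaction (1273); the ATF4 arm then had 7, 4 and 2 called for senescent against young cells, young cells at 3% against 20% and the interaction, and the chaperone arm 5 and 6 for young cells at 3% against 20% and old against senescent cells. Old against young cells at 3% fitted alone gave 124 genes (344) and 0 of the ATF4 arm, as did the beta-actin covariate (0). For old against senescent cells the ATF4 arm had 1 called in place of 2 with the probe set of largest SD, the groups alone, the replicate block, flat genes left out or the covariate. The probe set of largest SD gave 2 chaperones for senescent against young cells (6), 2 for the interaction (4) and 2 ATF4 arm genes for the interaction (1), and turned ATF3 in senescent cells to -0.05 (adjusted p = 0.949; 0.14 by the mean). Quantile normalization gave 5 chaperones for young cells at 3% against 20% (3). Leaving out flat genes, which tests fewer members, moved the ATF4 arm median to 0.31 (senescent against young) and 0.22 (interaction). It moved the chaperone median to -0.37, 0.19, -0.15, 0.37 and -0.64 in the order senescent against young, old against young, young cells at 3% against 20%, old against senescent and interaction. That filter uses the SD over these same arrays, group differences included, and so removes members with little change. The shift of these medians is therefore partly fixed in advance. The chaperone median was -0.24 without probe sets that can read several transcripts (senescent against young) and -0.21 with the probe set of largest SD (interaction).

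Without any 1 array, the genes called ranged from 1687 to 2567, 187 to 423, 1626 to 2455, 1607 to 2261 and 858 to 1411 for senescent against young, old against young, young cells at 3% against 20%, old against senescent and the interaction. In that order the ATF4 arm had 1 to 3, 0 to 1, 2 to 2, 1 to 2 and 1 to 2 called, with medians of 0.097 to 0.24, 0.036 to 0.16, 0.14 to 0.27, -0.027 to 0.16 and -0.039 to 0.17. The chaperone arm had 2 to 6, 0 to 0, 3 to 4, 2 to 4 and 0 to 4, with medians of -0.18 to -0.092, 0.045 to 0.15, 0.026 to 0.092, 0.13 to 0.27 and -0.16 to -0.013. The replicate block fitted to the senescent and old arrays only, chosen after seeing the data, gave 2842 genes, 2 of the ATF4 arm and 4 chaperones. Apart from what the alternative itself changes, the cause of these shifts was not tested.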
